A study of Mus musculus with 8 samples.

Results

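The antioxidant enzymes described here are 45 genes of the liver: NRF2 itself (Nfe2l2) and its inhibitor Keap1, enzymes that NRF2 is known to switch on, the enzymes that make glutathione, the glutathione S-transferases, and the pentose phosphate enzymes that supply NADPH. They were taken by gene name from a table of 37583 genes. All 45 were found, and all 45 passed the filter on low counts, which 17362 genes passed. The choice of the genes did not use their measured values, but it was made with earlier results of these data known.

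NRF2 is a transcription factor that KEAP1 holds in the cytoplasm and hands over for degradation. When oxidants or electrophiles modify KEAP1, NRF2 escapes, enters the nucleus, pairs with a small MAF protein and binds antioxidant response elements near its target genes. In hepatocytes these targets reduce quinones, make and recycle glutathione, attach it to reactive compounds and pump the conjugates out of the cell.

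RNA of whole liver was sequenced in 8 libraries, all labelled strain C57BL6/CBA and age 8 months. The WT group holds 2 libraries of untreated wild-type liver. The PR-SET7_LOBE group holds 4 libraries with the genotype PR-SET7_LX_ALB_CRE, in which the histone methyltransferase PR-SET7 is inactivated in hepatocytes by a Cre recombinase under the albumin promoter. Whether other liver cells kept the gene was not tested. The labels do not say what LOBE stands for. The DEN_WT group holds 2 libraries of wild-type mice given the liver carcinogen diethyl nitrosamine (DEN) into the peritoneum at 15 days of age, at 25 ml per kg, with no concentration stated; its genotype is labelled WT, without the Cre line of the PR-SET7_LOBE group. In the series, the DEN_WT libraries are numbered apart from those of WT and PR-SET7_LOBE. Whether all 8 were prepared and sequenced together was not tested. The labels give neither the sex of the mice nor a Cre-only or vehicle control, and they do not say that libraries of a group come from separate animals. The column headers of the counts tag each library BR with its replicate number, without spelling out BR. P-values therefore measure only the spread between these libraries, which may be one between animals or technical. Libraries of 1 group differed by more than sampling noise, with a chi-square per degree of freedom of 30.3 to 237 over genes.

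Libraries held between 7305595 and 16108081 counts. Levels are CPM, counts relative to the TMM-scaled size of the library, and rose and fell are used only of an adjusted p under 0.05 in edgeR's quasi-likelihood test. PR-SET7_LOBE replicate 1 correlated with the WT libraries at r = 0.948 and 0.916 across genes and with the libraries of its own group at 0.885 to 0.917, so counts are also given without it. That choice came from these same data, and leaving out a library for its likeness to WT favours calls against WT. Hepatocyte markers such as albumin were abundant in every library, with a sum over 7 markers of 72221 to 99060 CPM in WT, 42291 to 154799 in PR-SET7_LOBE and 136010 to 165444 in DEN_WT. In whole tissue, fewer cells of a type and less RNA per cell cannot be told apart.

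Promoter sequences are shown for the genes on which the results turn: the 4 that rose in PR-SET7_LOBE (Abcc4, Cbr3, Gpx2 and Gsta1), Nfe2l2, which rose in DEN_WT, and Prdx1, the single gene, of the 40 with a window, in which the form TGACTCAGC was found. They come from RefSeq (GRCm38.p6) and run from 250 bases before to 50 bases after the start of the gene, 5′ to 3′ on the strand of the gene. Windows were found for 40 of the 45 genes, 50 windows in all. Capitals mark matches to TGACNNNGC, the core of the antioxidant response element, searched on both strands, so that a match on the other strand shows as its reverse complement.

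Abcc4, first window (chr14:118706170-118706469, minus strand): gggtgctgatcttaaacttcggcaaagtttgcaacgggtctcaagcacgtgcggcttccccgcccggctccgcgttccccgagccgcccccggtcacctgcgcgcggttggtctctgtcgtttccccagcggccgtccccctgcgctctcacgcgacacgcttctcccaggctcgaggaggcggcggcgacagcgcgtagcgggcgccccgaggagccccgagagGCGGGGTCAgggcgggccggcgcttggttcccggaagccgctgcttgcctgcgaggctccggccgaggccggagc

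Abcc4, second window (chr14:118676882-118677181, minus strand): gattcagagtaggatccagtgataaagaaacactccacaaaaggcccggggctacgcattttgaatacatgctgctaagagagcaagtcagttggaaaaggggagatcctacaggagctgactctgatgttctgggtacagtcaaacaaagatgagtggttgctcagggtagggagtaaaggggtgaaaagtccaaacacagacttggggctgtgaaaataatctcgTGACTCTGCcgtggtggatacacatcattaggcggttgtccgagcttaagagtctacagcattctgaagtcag

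Nfe2l2 (chr2:75704614-75704913, minus strand): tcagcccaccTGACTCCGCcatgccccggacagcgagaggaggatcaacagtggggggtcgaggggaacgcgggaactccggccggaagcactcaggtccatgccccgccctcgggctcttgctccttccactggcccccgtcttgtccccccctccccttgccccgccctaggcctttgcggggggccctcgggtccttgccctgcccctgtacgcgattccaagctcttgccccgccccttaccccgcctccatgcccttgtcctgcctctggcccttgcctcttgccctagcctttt

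Prdx1 (chr4:116685349-116685648, plus strand): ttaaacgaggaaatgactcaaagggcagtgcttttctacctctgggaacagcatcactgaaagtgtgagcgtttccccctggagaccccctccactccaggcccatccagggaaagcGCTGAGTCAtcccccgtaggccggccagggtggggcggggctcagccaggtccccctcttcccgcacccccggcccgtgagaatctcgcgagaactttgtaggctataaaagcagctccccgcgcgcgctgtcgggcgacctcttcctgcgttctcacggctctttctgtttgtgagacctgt

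Cbr3 (chr16:93682969-93683268, plus strand): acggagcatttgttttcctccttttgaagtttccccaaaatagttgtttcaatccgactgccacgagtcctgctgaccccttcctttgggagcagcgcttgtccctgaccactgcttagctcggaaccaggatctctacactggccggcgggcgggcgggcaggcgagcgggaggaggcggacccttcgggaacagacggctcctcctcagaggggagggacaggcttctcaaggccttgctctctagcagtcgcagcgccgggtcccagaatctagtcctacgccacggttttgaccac

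Gpx2 (chr12:76795505-76795804, minus strand): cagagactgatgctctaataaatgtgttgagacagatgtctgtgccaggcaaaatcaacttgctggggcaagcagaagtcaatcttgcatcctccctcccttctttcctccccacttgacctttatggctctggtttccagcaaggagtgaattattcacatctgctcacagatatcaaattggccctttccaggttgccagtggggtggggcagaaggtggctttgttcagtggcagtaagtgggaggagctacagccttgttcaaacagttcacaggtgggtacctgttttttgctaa

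Gsta1 (chr9:78230419-78230718, plus strand): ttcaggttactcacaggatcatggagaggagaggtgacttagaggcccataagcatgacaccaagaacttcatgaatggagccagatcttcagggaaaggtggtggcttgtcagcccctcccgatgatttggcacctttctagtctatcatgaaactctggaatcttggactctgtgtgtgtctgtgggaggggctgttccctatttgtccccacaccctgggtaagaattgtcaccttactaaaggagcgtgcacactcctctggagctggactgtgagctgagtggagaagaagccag

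Of the 50 windows, 12 (24%) held the core, against 12.4% of all 32851 RefSeq windows. By gene this was 11 of 40 (27.5%), against 14% of 27025 genes: Nfe2l2, Gclm, Prdx1, Srxn1, Txnrd1, Gsta3, Mgst1, Ugdh, Abcc4, G6pdx and Pgd. Of the 12 genes called in any of the comparisons below, Nfe2l2 and Abcc4 held a match. The windows of Cbr3, Gpx2 and Gsta1 held none, which says only that these letters are not within these 300 bases. A match is a description of the sequence and not a site of binding.

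Set against WT, the PR-SET7_LOBE libraries held more RNA of many of these enzymes, with 4 past the test. Cbr3, a carbonyl reductase, Gpx2, a glutathione peroxidase best known from the gut lining, Gsta1, an alpha-class glutathione S-transferase, and Abcc4, an efflux pump for conjugates and bile acids, rose. None of the 45 fell by edgeR, with 4 lower at an unadjusted p under 0.05, 2 lower by DESeq2 and 0 by limma voom. Of all genes tested, 0.248% were called in this comparison, 0.150% higher and 0.0979% lower, and 6.08% were lower at an unadjusted p under 0.05. The 4 of 45 that rose were 8.89%.

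A wider difference showed in the ranges. All 4 PR-SET7_LOBE libraries lay above both WT libraries for 20 of the 45 genes, against 11.6% of all genes, and below both for 5 (Gstt1, Gstt3, Mgst1, Gsto1 and Cat), against 10.5%. The median log2 fold change of the 45 genes was 0.79, against 0.11 for all genes, and 33 of 45 (73.3%) were above 0, against 54.6%. Upper-quartile scaling moved the median of all genes to 0.29 and that of the 45 to 0.98.

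**Figure D1:**
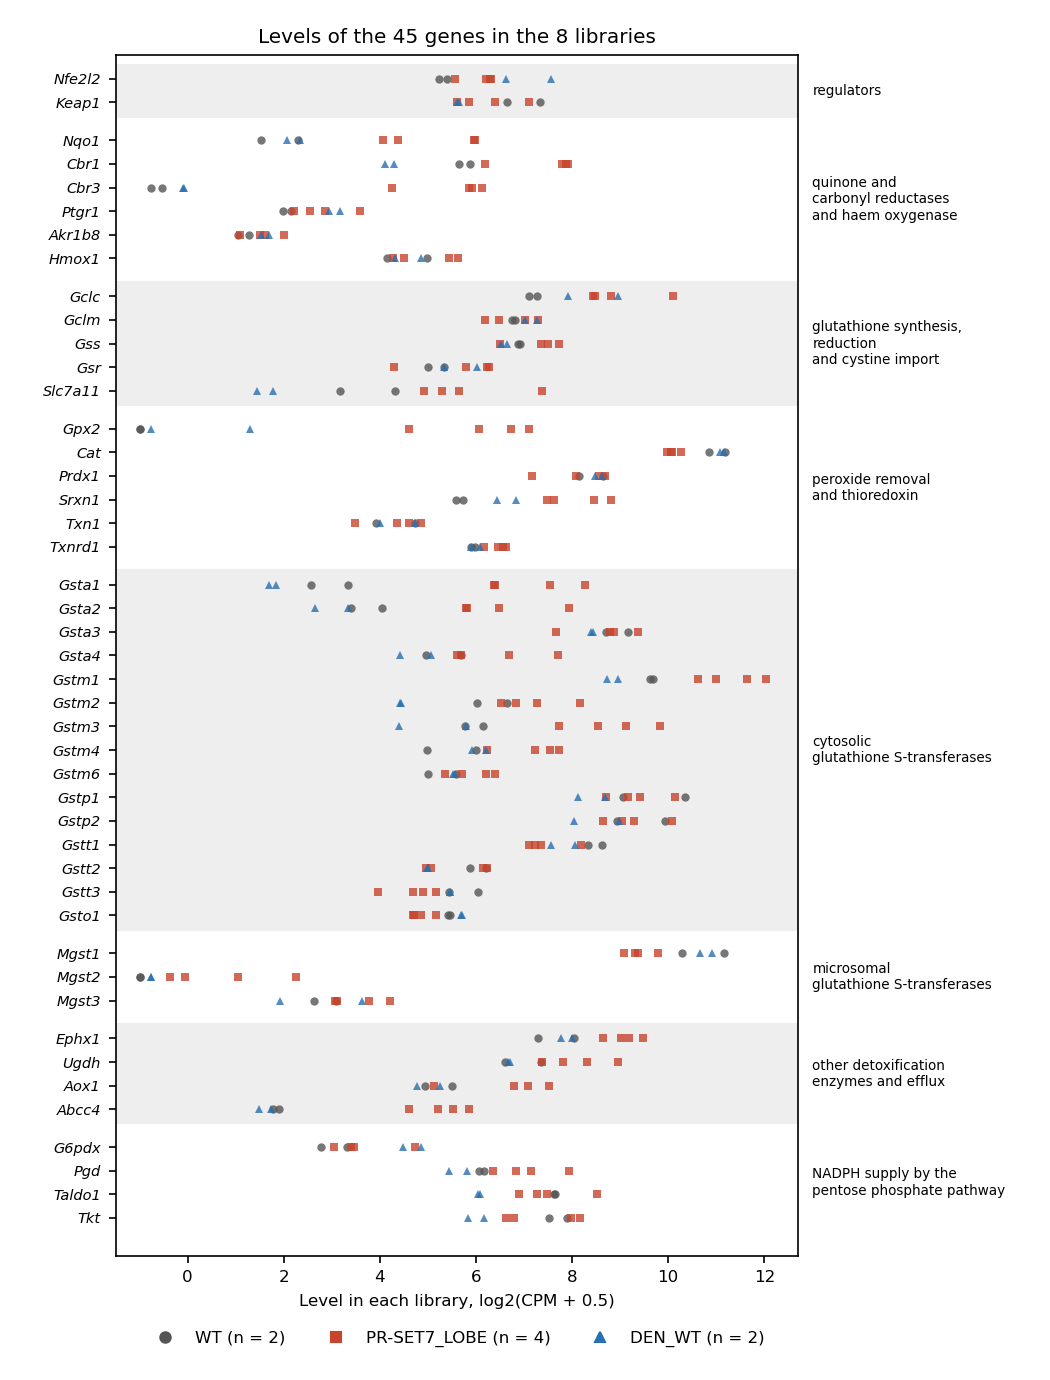
Level of each of the 45 genes, grouped by role, on a log2 scale of CPM plus 0.5 (horizontal axis), with 1 point per library and colours for WT, PR-SET7_LOBE and DEN_WT. For Cbr3, Gpx2, Gsta1, Abcc4 and Nqo1 the 4 PR-SET7_LOBE points stand to the right of all others, while Mgst1 and Cat have theirs to the left.

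Of the regulators, Nfe2l2 (chromosome 2, 75513570 to 75542698 in mm9) stood at 36.9 and 41.8 CPM in WT, at 46.8, 79.3, 73.3 and 77.8 in PR-SET7_LOBE and at 97.7 and 189 in DEN_WT. The 3 groups did not overlap, in the order WT, PR-SET7_LOBE, DEN_WT, with replicate 1 the PR-SET7_LOBE library nearest to WT. The log2 difference from WT was 0.82 (SE 0.40, adjusted p = 0.319) in PR-SET7_LOBE and 1.86 (SE 0.46, adjusted p = 0.0310) in DEN_WT, where Nfe2l2 thus rose. Between PR-SET7_LOBE and DEN_WT it was -1.05 (SE 0.38, adjusted p = 0.105). NRF2 is held mainly at the level of its protein, which these libraries do not measure.

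Keap1 (chromosome 9, 21034174 to 21043776), the inhibitor, stood at 160 and 98.9 CPM in WT, at 137, 83.8, 48.2 and 57.6 in PR-SET7_LOBE and at 48.2 and 49.6 in DEN_WT. The DEN_WT libraries lay below both WT libraries, and PR-SET7_LOBE overlapped WT. Its log2 differences from WT of -0.66 (SE 0.45, adjusted p = 0.445) and -1.40 (SE 0.54, adjusted p = 0.117) did not pass. Without PR-SET7_LOBE replicate 1, Keap1 passed in DEN_WT.

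Among the reductases, Cbr3 (chromosome 16, 93683460 to 93691235) was near absent in WT and DEN_WT. It had 0.191 and 0.0922 CPM in WT, from 3 counts in all, and 60.2, 57.6, 69.7 and 18.5 CPM in PR-SET7_LOBE, where replicate 4 was the lowest. In DEN_WT it was at 0.443 and 0.442 CPM. The ratio of PR-SET7_LOBE to WT was 364, which counting error at 95% confidence places between 124 and 1766 (adjusted p = 0.00607). That of DEN_WT to WT was 3.14, placed between 0.808 and 17.7 (adjusted p = 0.306). Intervals and detection limits cover counting error only, since amplified reads without molecular tags are not independent molecules.

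Cbr1 (chromosome 16, 93608082 to 93610750), a neighbour of Cbr3 that reduces quinones and prostaglandins, was at 58.2 and 49.6 CPM in WT and at 221, 234, 242 and 72.0 in PR-SET7_LOBE. In DEN_WT it was at 16.6 and 19.0 CPM, below every other library. The groups did not overlap in either comparison with WT, but neither difference passed: log2 1.84 (SE 0.52, adjusted p = 0.156) and -1.60 (SE 0.56, adjusted p = 0.0933). The gap between PR-SET7_LOBE and DEN_WT, 3.43 (SE 0.57, adjusted p = 0.00328), did pass.

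Nqo1 (chromosome 8, 109912125 to 109927106), the quinone reductase most often read as a gauge of NRF2 activity, was at 4.40 and 2.40 CPM in WT and at 16.3, 62.0, 62.4 and 20.2 in PR-SET7_LOBE. In DEN_WT it stayed near the WT values, at 3.72 and 4.59 CPM. All PR-SET7_LOBE libraries lay above all others, with replicates 2 and 3 the higher pair. The log2 difference from WT was 3.56 (SE 0.70, adjusted p = 0.0729) in PR-SET7_LOBE, short of the threshold, and 0.29 (SE 0.70, adjusted p = 0.810) in DEN_WT. The difference between PR-SET7_LOBE and DEN_WT was 3.27 (SE 0.68, adjusted p = 0.0110).

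The other 3 genes of this group, Ptgr1, Akr1b8 and Hmox1, the haem oxygenase, differed from WT by log2 values of 0.45 to 0.91 in PR-SET7_LOBE, and none passed. Hmox1 ranged from 18.9 to 49.0 CPM in PR-SET7_LOBE and from 17.1 to 31.3 in WT, so the groups overlapped.

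In glutathione synthesis, Gclc (chromosome 9, 77602342 to 77642292), the catalytic subunit of the rate-limiting glutamate-cysteine ligase, was at 153 and 138 CPM in WT. It was at 355, 347, 1096 and 447 CPM in PR-SET7_LOBE and at 243 and 495 in DEN_WT. All libraries of both groups lay above both WT libraries, and PR-SET7_LOBE replicate 3 stood far above the rest. The differences of 1.95 (SE 0.60, adjusted p = 0.174) and 1.34 (SE 0.64, adjusted p = 0.194) did not pass. Gclm, the modifier subunit of the same enzyme, ranged from 72.8 to 157 CPM in PR-SET7_LOBE around WT values of 107 and 112, a log2 difference of 0.03 (SE 0.39, adjusted p = 0.977).

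Slc7a11 (chromosome 3, 50168858 to 50247535), which imports the cystine that limits glutathione synthesis, had opposite values in the PR-SET7_LOBE and DEN_WT groups. It was at 8.52 and 19.5 CPM in WT, at 29.8, 38.6, 166 and 49.4 in PR-SET7_LOBE and at 2.21 and 2.91 in DEN_WT. The 3 groups did not overlap, and PR-SET7_LOBE replicate 3 was again the highest. Against WT the log2 differences were 2.33 (SE 0.73, adjusted p = 0.179) and -2.45 (SE 0.82, adjusted p = 0.0825), neither past the test, while PR-SET7_LOBE exceeded DEN_WT by 4.78 (SE 0.86, adjusted p = 0.00508). Gss and Gsr, which complete and recycle glutathione, differed from WT by log2 values of 0.44 and 0.65 in PR-SET7_LOBE, with overlapping groups.

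Among the genes that remove peroxides, Gpx2 (chromosome 12, 77893322 to 77896541) had no count in either WT library. It was at 66.1, 105, 136 and 23.9 CPM in PR-SET7_LOBE and at 1.95 and 0.0883 CPM in DEN_WT. Against the limit that a count of 0 allows (3 counts over the WT group), PR-SET7_LOBE was at least 588-fold higher (adjusted p = 0.0298) and DEN_WT at least 7.23-fold higher (adjusted p = 0.0973), the latter from 1 of its 2 libraries. Gpx2 lies opposite Fntb on the other strand, and no strand setting of the counting is known, so reads from Fntb could have counted for Gpx2. In WT none did. Keap1, Akr1b8, Gclm, Gss, Gsto1, Abcc4 and G6pdx also overlap a gene on the other strand.

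Srxn1 (chromosome 2, 151931252 to 151937112), the sulfiredoxin that revives overoxidised peroxiredoxins, was at 52.8 and 47.6 CPM in WT, at 178, 351, 450 and 197 in PR-SET7_LOBE and at 86.5 and 113 in DEN_WT. The groups were separate and in the order WT, DEN_WT, PR-SET7_LOBE, and the difference of PR-SET7_LOBE from WT was log2 2.55 (SE 0.51, adjusted p = 0.0766). Txnrd1, thioredoxin reductase, was also above WT in every PR-SET7_LOBE library, by log2 0.53 (adjusted p = 0.417). Prdx1 and Txn1 overlapped WT in both groups.

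Cat, catalase, went the other way. It ranged from 1850 to 2328 CPM in WT, from 1001 to 1236 in PR-SET7_LOBE and from 2162 to 2304 in DEN_WT, so that PR-SET7_LOBE was the lowest group throughout. The log2 difference from WT was -0.93 (SE 0.39, adjusted p = 0.266) and did not pass.

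The cytosolic glutathione S-transferases, which attach glutathione to electrophiles, differed from class to class, a split that was not tested. In PR-SET7_LOBE, 8 of the 15 (53.3%) had a positive log2 difference from WT, near the 54.6% of all genes, and 1 passed. The summed level of the 5 mu-class genes was 1037 ± 42.4 CPM in WT (SD, n = 2), 3644 ± 1619 in PR-SET7_LOBE (SD, n = 4) and 628 ± 86.0 in DEN_WT (SD, n = 2), and every PR-SET7_LOBE library (2105 to 5670) exceeded every other. The sum of the 3 theta-class genes was 477 ± 75.2 CPM in WT and 263 ± 83.5 in PR-SET7_LOBE, with all PR-SET7_LOBE libraries below WT. The pi-class sum, 1652 ± 885 CPM in WT and 1355 ± 600 in PR-SET7_LOBE, overlapped. So did that of the 4 alpha-class genes, at 462 and 648 CPM in WT and 392 to 1423 in PR-SET7_LOBE, where it was lowest in replicate 1.

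**Figure D2:**
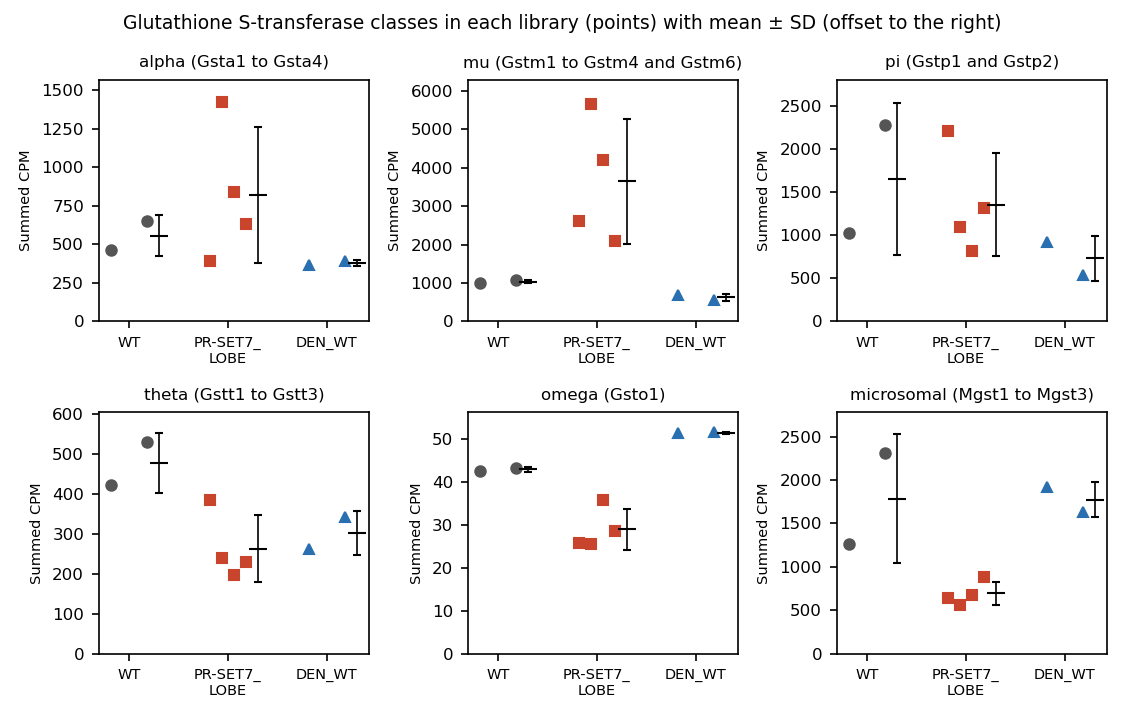
Summed CPM of each glutathione S-transferase class (vertical axis, from 0, 1 panel per class) in each library (points) of WT, PR-SET7_LOBE and DEN_WT, with the mean and SD offset to the right. The mu class is higher in all 4 PR-SET7_LOBE libraries (2105 to 5670 CPM) than elsewhere, and the microsomal class is lower in them.

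Gsta1 (chromosome 9, 78078463 to 78090491) was at 5.46 and 9.59 CPM in WT, at 83.3, 310, 185 and 82.5 in PR-SET7_LOBE and at 2.74 and 3.09 in DEN_WT. PR-SET7_LOBE was the high group and DEN_WT the low one, with no overlap among the 3. The rise over WT was log2 4.46 (SE 0.70, adjusted p = 0.0331). Its neighbour Gsta2 (chromosome 9, 78178825 to 78203595) was at 10.05 and 15.95 CPM in WT, at 56.1, 246, 88.3 and 54.6 in PR-SET7_LOBE and at 5.76 and 9.63 in DEN_WT, a difference from WT of log2 3.09 (SE 0.71, adjusted p = 0.0992).

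These copies are hard to keep apart. Gsta1 is 97.2% identical to Gsta2 and 99.5% to Gm3776, and Gsta2 is 98.2% identical to Gm10639 over the transcript, so the authors' counting could have moved reads among them. With the counts of Gm3776, Gm10639 and Gm8074 added, a step chosen after seeing the data, Gsta1 differed from WT by log2 4.38 and missed the threshold (adjusted p = 0.0502), and 3 genes were called in place of 4. The same counts were added to Gsta2 as well. Gsta1 and Gsta2 were not added to each other, so reads moved between them were not addressed.

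Gstm1 (chromosome 3, 107815173 to 107820891), the most abundant mu-class enzyme, was at 826 and 786 CPM in WT, at 2027, 4201, 3207 and 1578 in PR-SET7_LOBE and at 492 and 420 in DEN_WT. The groups were separate, yet the difference of PR-SET7_LOBE from WT, log2 1.77 (SE 0.53, adjusted p = 0.165), did not pass. Per kilobase of exon, its mean level of 1869 CPM per kb in PR-SET7_LOBE compares with 338 for Mgst1 and 420 for Cat, which at 883 and 799 CPM per kb had stood above Gstm1 (547) in WT.

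Gstm3 (chromosome 3, 107745251 to 107772201) was at 53.8 and 70.4 CPM in WT, at 370, 915, 553 and 211 in PR-SET7_LOBE and at 55.3 and 20.6 in DEN_WT. All 4 PR-SET7_LOBE libraries exceeded the others, by log2 3.04 over WT (SE 0.69, adjusted p = 0.0972). Gstm3 overlaps Gstm6 on the same strand. Gstm2 (chromosome 3, 107784620 to 107789371) was at 64.8 and 99.6 CPM in WT, at 91.8, 286, 154 and 114 in PR-SET7_LOBE and at 21.16 and 21.02 in DEN_WT. Here replicate 1 fell within the WT range, and the clearest gap was that of DEN_WT below all others, at log2 -1.96 from WT (SE 0.57, adjusted p = 0.0524).

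Of the other cytosolic enzymes, Gstm4 lay above WT in all PR-SET7_LOBE libraries (74.4 to 211 CPM against 31.3 and 64.0), and Gstt1 (138 to 290 against 323 and 391), Gstt3 (15.1 to 35.3 against 43.2 and 65.5) and Gsto1 (25.4 to 35.6 against 42.4 and 43.2) lay below. None of these passed, with adjusted p between 0.163 and 0.357. Gstp1 and Gstp2, which are 98.2% identical and hard to separate, overlapped WT.

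The microsomal transferases sit in membranes and also reduce lipid peroxides. Mgst1 (chromosome 6, 138088837 to 138105276) was at 1253 and 2303 CPM in WT, at 637, 544, 662 and 877 in PR-SET7_LOBE and at 1912 and 1621 in DEN_WT. PR-SET7_LOBE lay below both other groups, at log2 -1.39 from WT (SE 0.42, adjusted p = 0.170). Mgst2 had no count in WT, 0.470, 4.30, 1.58 and 0.273 CPM in PR-SET7_LOBE and 0.0885 and 0.0883 in DEN_WT, at least 11.8-fold higher in PR-SET7_LOBE than in WT (adjusted p = 0.159). Mgst3 overlapped between the groups.

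Of the other detoxification genes, Abcc4 (chromosome 14, 118881914 to 119105441) was at 3.25 and 2.95 CPM in WT, at 36.6, 57.0, 45.2 and 23.8 in PR-SET7_LOBE and at 2.30 and 2.83 in DEN_WT. It rose by log2 3.71 (SE 0.48, adjusted p = 0.0137), and its PR-SET7_LOBE libraries lay closer together, by the ratio of the highest to the lowest, than those of the other 3 genes that rose. Ephx1 (chromosome 1, 182906286 to 182951035), the microsomal epoxide hydrolase, was at 155 and 263 CPM in WT, at 516, 713, 582 and 401 in PR-SET7_LOBE and at 219 and 256 in DEN_WT. All PR-SET7_LOBE libraries exceeded all others, and the difference from WT was log2 1.40 (SE 0.44, adjusted p = 0.176). Ugdh, which makes UDP-glucuronic acid, and Aox1, an aldehyde oxidase, differed by log2 1.20 and 1.63 and did not pass.

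The pentose phosphate enzymes regenerate the NADPH on which glutathione reductase depends. G6pdx, which opens the pathway, was at 9.47 and 6.36 CPM in WT, at 10.5, 26.2, 7.80 and 10.1 in PR-SET7_LOBE and at 21.7 and 28.5 in DEN_WT. PR-SET7_LOBE overlapped WT, and only DEN_WT stood above it, at log2 1.66 (SE 0.59, adjusted p = 0.0965). Pgd, the next dehydrogenase, was at 66.7 and 71.3 CPM in WT, at 140, 113, 244 and 81.5 in PR-SET7_LOBE and at 55.4 and 42.9 in DEN_WT, with log2 1.07 (SE 0.47, adjusted p = 0.275) for PR-SET7_LOBE. Taldo1 and Tkt, of the non-oxidative branch, overlapped WT in PR-SET7_LOBE and lay below it in both DEN_WT libraries, at log2 -1.58 (adjusted p = 0.0893) and -1.71 (adjusted p = 0.0841).

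The 4 PR-SET7_LOBE libraries did not respond alike. Replicate 4 was the lowest of the 4 for 19 of the 45 genes (42.2%), against 19.3% of all genes tested, and for 18 of the 33 genes that were higher on average than in WT. Replicate 3 was the highest for 18 genes and replicate 2 for 16. The share of all counts, before TMM scaling, that fell on the 45 genes was 0.609% and 0.760% in WT. It reached 0.945%, 1.46%, 1.91% and 1.10% in the PR-SET7_LOBE libraries, and was 0.912% and 0.851% in DEN_WT. TMM factors ran from 0.674 (WT replicate 2) to 1.48 (PR-SET7_LOBE replicate 3), so these shares do not carry over to CPM. For the glutathione S-transferases the unscaled share was 0.321% and 0.463% in WT against 0.547% to 0.998% in PR-SET7_LOBE. Their summed CPM overlapped, at 4223 and 6875 against 5188 to 9016. Sums of cholangiocyte markers, mostly Spp1, were 39.4 to 68.0 CPM in WT, 119 to 298 in PR-SET7_LOBE, lowest in replicate 4, and 437 to 739 in DEN_WT. Macrophage marker sums were 386 to 1210 CPM in WT, 537 to 1182 in PR-SET7_LOBE, again lowest in replicate 4, and 350 to 501 in DEN_WT. Lymphocyte markers were lowest in DEN_WT: B cell sums were 27.5 and 33.5 CPM in WT, 19.5 to 32.4 in PR-SET7_LOBE and 5.05 and 1.94 in DEN_WT, and T and NK cell sums were 16.5 to 22.5 CPM in the other 6 libraries and 6.64 and 6.01 in DEN_WT. Of the 5 B cell markers 2 were higher in PR-SET7_LOBE than in DEN_WT by edgeR's test. Stellate cell and fibroblast sums were 114 and 160 CPM in WT, 202 to 279 in PR-SET7_LOBE and 236 and 406 in DEN_WT, and erythroid sums, highest in WT, were 1741 and 2671, 303 to 1219, and 762 and 1017 CPM. The part of these cells in the levels of the 45 genes was not tested.

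The calls against WT needed both WT libraries. With 1 of them left out the WT group is a single library, which the fit takes to vary like the other groups. Without WT replicate 1 or without WT replicate 2, edgeR called 0 of the 45 genes in PR-SET7_LOBE (13 and 15 higher at an unadjusted p under 0.05), and Cbr3 had adjusted p = 0.0524 and 0.122. The log2 differences stayed large, at 8.95 and 8.07 for Cbr3, 3.77 and 3.71 for Abcc4, 12.8 and 12.8 for Gpx2 and 4.10 and 4.99 for Gsta1, and 0.0423% and 0.00531% of all genes were called. DESeq2, run on all libraries, called 15 of the 45 higher and 2 lower, against 3.66% and 1.46% of all genes. Limma voom called 8 higher and 0 lower, against 0.766% and 1.46%. Without PR-SET7_LOBE replicate 1, by contrast, 16 genes rose and Gstt1 fell, where 7.41% of all genes were called higher and 6.54% lower (13.9% in all); the 4 were among them, and the others that rose were Nqo1, Cbr1, Gclc, Slc7a11, Srxn1, Gsta2, Gstm1, Gstm3, Gstm4, Mgst2, Ephx1 and Aox1. Since replicate 1 was singled out for its likeness to WT, these further calls are no independent support. Without PR-SET7_LOBE replicate 2, Gpx2 (adjusted p = 0.0648) and Gsta1 (adjusted p = 0.0538) were lost by edgeR, and 2 genes were called, against 0.0870% of all genes.

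**Figure D3:**
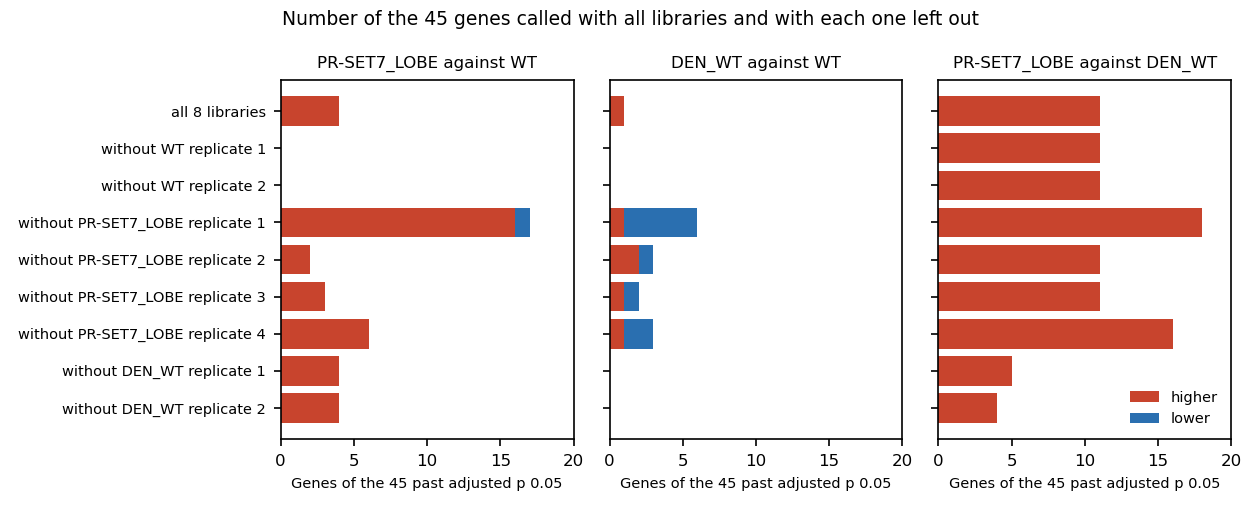
Number of the 45 genes past an adjusted p of 0.05 (horizontal axis), higher or lower, with all libraries and with each library left out, 1 panel per comparison. Leaving out either WT library ends all 4 calls of PR-SET7_LOBE against WT, and leaving out PR-SET7_LOBE replicate 1 raises them to 17.

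In DEN_WT, 1 of the 45 genes rose, Nfe2l2, where 9.73% of all genes tested were called, 5.18% higher and 4.54% lower. None of the 45 fell by edgeR, with 7 (15.6%) lower at an unadjusted p under 0.05, against 2240 of the 17362 genes tested (12.9%; 28.9% in either direction). These counts depend on the tool. DESeq2 called 3 higher and 5 lower, against 10.5% and 7.57% of all genes, and limma voom 3 and 8, against 19.0% and 17.5%. The edgeR test fitted to DEN_WT and WT alone called 4 higher and 7 lower of the 42 genes then tested, against 3139 and 2504 of all 14924 genes, and with the replicate number as a block 2 and 6 of the 45, against 10.0% and 8.04%. Both DEN_WT libraries lay above both WT libraries for 11 genes and below for 16, against 37.8% and 33.3% of all genes (71.2% in all). The median log2 difference of the 45 was -0.02, against 0.06 for all genes, and 0.04 under RLE scaling. Among the cytosolic transferases 8 of 15 lay below WT in both libraries, and 3 of 4 pentose phosphate enzymes did. Nfe2l2 did not pass when WT replicate 1 or 2 was left out (adjusted p = 0.183 and 0.134), nor when DEN_WT replicate 1 or 2 was (adjusted p = 0.0591 and 0.301). Without PR-SET7_LOBE replicate 1, which enters through the shared estimate of spread, Nfe2l2 rose and Keap1, Tkt, Taldo1, Slc7a11 and Gstm2 fell, where 14.6% of all genes were called higher and 11.9% lower (26.5% in all).

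The comparisons of PR-SET7_LOBE and of DEN_WT with WT share the WT libraries, so their difference was tested directly, as PR-SET7_LOBE against DEN_WT. Of the 45 genes 11 were higher in PR-SET7_LOBE: Nqo1, Cbr1, Cbr3, Slc7a11, Gpx2, Gsta1, Gsta2, Gstm1, Gstm2, Gstm3 and Abcc4. Of all genes tested 11.1% were called here, 4.82% higher in PR-SET7_LOBE and 6.26% lower. None of the 45 was lower by edgeR, with 4 (8.89%) lower at an unadjusted p under 0.05, against 2235 of the 17362 genes tested (12.9%; 25.8% in either direction). DESeq2 called 19 higher and 3 lower, against 7.91% and 8.46% of all genes, and limma voom 21 and 4, against 14.7% and 15.2%. The groups did not overlap for 22 genes higher and 5 lower, against 19.3% and 21.2% of all genes (40.5% in all), and the median log2 difference was 0.77, against 0.18.

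Of the genes that had also risen over WT, Cbr3 differed by log2 6.83 (SE 0.73, adjusted p = 0.000746) and Gpx2 by 6.33 (SE 1.12, adjusted p = 0.00578). Gsta1 differed by 5.82 (SE 0.76, adjusted p = 0.00132) and Abcc4 by 3.98 (SE 0.49, adjusted p = 0.00111). These 4 passed in all 18 alternative analyses. Without PR-SET7_LOBE replicate 1, 18 of the 45 genes were higher in PR-SET7_LOBE, where 6.93% of all genes were called higher and 8.60% lower (15.5% in all). Gsta2 (log2 3.85), Gstm3 (3.76), Gstm2 (2.93) and Gstm1 (2.59) were the other transferases that passed, so that 2 of the 4 alpha-class and 3 of the 5 mu-class genes did. Without DEN_WT replicate 1 or 2 that group is a single library, and fewer genes were called, both among the 45 and among all genes. Cbr1, Slc7a11, Nqo1, Gsta2, Gstm1 and Gstm2 were lost in both cases, at log2 differences from 2.46 (Gstm1) to 4.96 (Slc7a11). Gstm3 was lost without replicate 2, at log2 3.19.

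**Figure D4:**
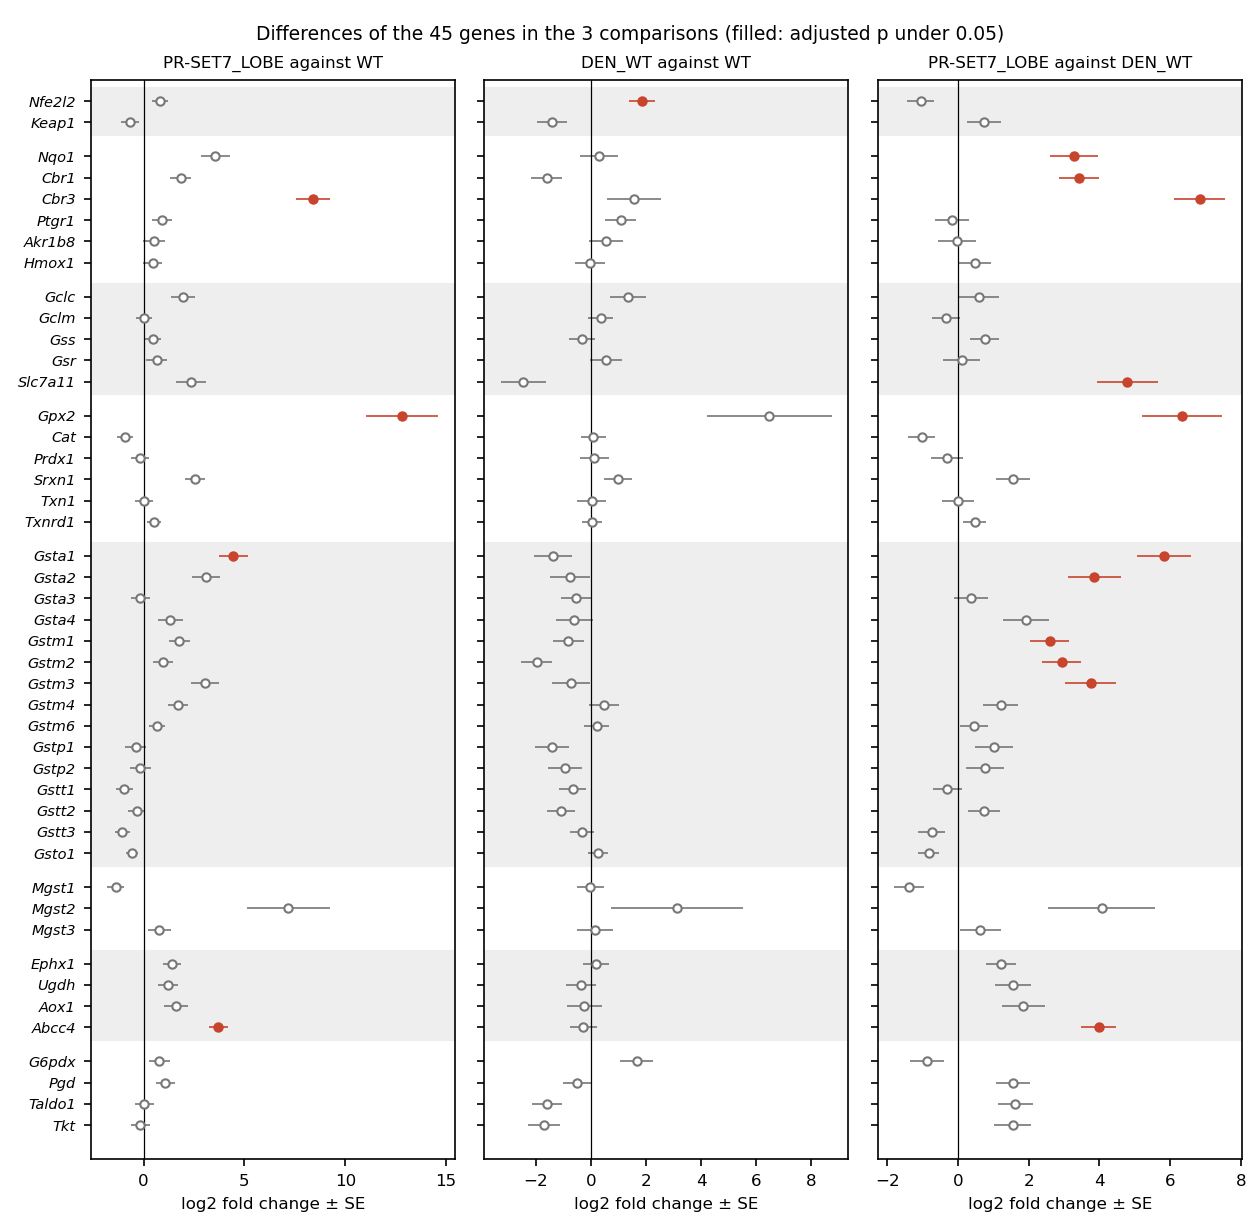
Log2 fold change with its SE (horizontal axis) of each of the 45 genes in the 3 comparisons, 1 panel each, with filled symbols for an adjusted p under 0.05. Cbr3, Gpx2, Gsta1 and Abcc4 are filled for PR-SET7_LOBE against WT, Nfe2l2 alone for DEN_WT against WT, and 11 genes for PR-SET7_LOBE against DEN_WT.

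Counts on some near-identical copies differed between the groups. How reads with several hits were treated, and whether that was the same in all groups, is not given in the sources used here, and its part in the comparisons with DEN_WT was not tested beyond the sums given next. For 8 of the 45 genes the table holds a copy of at least 90% identity outside the 45, and for 4 of them (Prdx1, Ugdh, G6pdx and Gstm1) the copies were higher in both DEN_WT libraries than in the other 6. Of all genes tested, 37.8% were higher in both DEN_WT libraries than in every WT library. For PR-SET7_LOBE in place of WT this was 21.2%, and the share above both groups at once was not counted. Gstm2-ps1, a pseudogene 97.9% identical to Gstm1, was at 2.87 and 10.5 CPM in WT, at 7.41, 23.5, 24.6 and 14.5 in PR-SET7_LOBE and at 176 and 246 in DEN_WT. Adding it to Gstm1 brought the difference of DEN_WT from WT from log2 -0.82 to -0.28 and that of PR-SET7_LOBE from DEN_WT from 2.59 to 2.05 (adjusted p = 0.0323). With all copies added, the same 11 genes were called between PR-SET7_LOBE and DEN_WT. Of these, only Gpx2, Cbr1, Gsta1, Gsta2 and Gstm1 had copies to add. For Nqo1, Cbr3, Slc7a11, Gstm2, Gstm3 and Abcc4 nothing was added, so the step could not probe their calls.

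Other genes of the pathway, from lists of NRF2 partners, further glutathione and peroxide enzymes and further NRF2 targets, gave 60 tested genes. None passed in PR-SET7_LOBE against WT by edgeR (8 higher and 6 lower at an unadjusted p under 0.05, against 11.1% and 6.08% of all genes). DESeq2 called 7 and limma voom 3, against 5.13% and 2.22% of all genes. Without PR-SET7_LOBE replicate 1, 4 were called higher and 7 lower, against 7.41% and 6.54% of all genes. In DEN_WT 5 of the 60 (8.33%) fell, against 4.54% of all genes: the ferritin light chain Ftl1 (log2 -2.40, adjusted p = 0.0197), the glutaredoxin Glrx2 (-1.79, adjusted p = 0.0295), the superoxide dismutase Sod1 (-2.10, adjusted p = 0.0297), the malic enzyme Me1 (-2.66, adjusted p = 0.0376) and the glyoxalase Glo1 (-1.58, adjusted p = 0.0453). This count, too, depends on the fit: 16 were lower without PR-SET7_LOBE replicate 1 (11.9% of all genes), 18 of 58 in a fit of DEN_WT and WT alone (16.8%) and 20 by limma voom (17.5%), with 2, 7 and 8 higher. With the counts of their copies added, Ftl1 (adjusted p = 0.0699), Sod1 (adjusted p = 0.0812) and Glo1 (adjusted p = 0.165) no longer passed, while Glrx2 and Me1 did. The sums of Akr1b3, an aldose reductase, with its copies and of Cyp2a5, a cytochrome P450, with Cyp2a4 then passed as higher (adjusted p = 0.0454 and 0.0322). Alone, neither Akr1b3 (adjusted p = 0.161) nor Cyp2a5 (adjusted p = 0.148) passed, and both were named after their values were seen. Cyp2a4 is itself a protein-coding gene, with means of 116 CPM in WT and 2813 in DEN_WT. Cyp2a5 alone had means of 292 and 997 CPM. Copies were higher in both DEN_WT libraries than in all others for 9 of the 11 other pathway genes that have one. Of all genes tested, 21.2% were higher in both DEN_WT libraries than in every PR-SET7_LOBE library.

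Between PR-SET7_LOBE and DEN_WT, 6 of these 60 were higher in PR-SET7_LOBE (Gpx4, Glrx2, Ggt1, Ftl1, Fth1 and Blvrb) and 3 lower (Cul3, Gstk1 and Prdx3). Of all genes 4.82% were higher and 6.26% lower, so the 3 lower ones were no more than that share. Cul3, the scaffold of the ligase that KEAP1 uses to mark NRF2, was at 7.23 to 16.4 CPM in PR-SET7_LOBE and at 37.3 and 35.9 in DEN_WT (adjusted p = 0.0302). Ggt1, a gamma-glutamyl transferase that breaks down glutathione outside the cell, was at 18.2, 1.34, 5.94 and 1.37 CPM in PR-SET7_LOBE and at 0.177 and 0 in DEN_WT (adjusted p = 0.0376). The haem pathway enzyme Blvrb and the peroxidase Gpx4 were higher by log2 2.47 (adjusted p = 0.0140) and 2.46 (adjusted p = 0.0337). With copies added, Ftl1 no longer passed (adjusted p = 0.0690).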

How the data were processed

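The authors deposited raw read counts per Ensembl gene for 8 libraries of mouse liver RNA, with mm9 coordinates per the file headers; the single-sample files hold the same counts as the series table. The submitters' processing notes name TopHat2 2.0.9, Cufflinks, DESeq and mm9. How reads were counted, with which strand setting, and what became of reads with more than 1 hit is not given in the sources used here.

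Genes passing filterByExpr by group were fitted in edgeR 4.0.16 (R 4.3.3; TMM, group term, robust quasi-likelihood test, all 8 libraries in 1 fit) with Benjamini-Hochberg adjustment over 17362 genes. The code of the fit was also run on simulated counts with known changes, which checks the code and not the results given here. Alternatives used DESeq2 1.42.0, limma 3.58.1 voom, other scaling and filters, the 2 groups alone, a replicate block and each library left out. Copies were searched with blastn 2.17.0 among GENCODE M21 transcripts; adding their counts (at least 90% identity over 50% of the transcript or 80% of the copy) was chosen after seeing the data.

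The 45 genes and all lists were chosen with earlier results of these data known. Library values are given for genes called in any comparison, for Nfe2l2 and Keap1, and for the 2 genes of each role with the smallest unadjusted p in PR-SET7_LOBE against WT. The other genes of the 45 are given by ranges and counts. Of the 60 other pathway genes, those called were named, up to 4 per list; Glo1 falls outside that limit and was named after its value was seen.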

Additional observations from a re-analysis of the deposited data

Results flagged for a closer look

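In 3 of 20 genes looked at, 1 of the 4 PR-SET7_LOBE libraries stood far from the other 3; chance gives this in about 1 of 20 groups. Nfe2l2 was at 46.8 CPM in PR-SET7_LOBE replicate 1, below the others. Cbr1 was at 72.0 CPM and Cbr3 at 18.5 CPM in PR-SET7_LOBE replicate 4, again below the others.

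For 11 genes the effects of PR-SET7_LOBE and DEN_WT against WT differed by edgeR's test of the difference. On the log2 scale the differences were 3.27 for Nqo1, 3.43 for Cbr1, 6.83 for Cbr3, 4.78 for Slc7a11 and 6.33 for Gpx2. Among the transferases they were 5.82 for Gsta1, 3.85 for Gsta2, 2.59 for Gstm1, 2.93 for Gstm2 and 3.76 for Gstm3, and for the efflux pump Abcc4 3.98. All 11 were higher in PR-SET7_LOBE. Gstm1, Gsta1 and Gsta2 have near-identical copies at other loci, and how reads with several hits were treated is not known, as given above.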

How the results depend on the processing

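With all libraries 4, 1 and 11 of the 45 genes were called in PR-SET7_LOBE against WT, DEN_WT against WT and PR-SET7_LOBE against DEN_WT. Of all genes tested 0.248%, 9.73% and 11.1% were. With 1 library left out the counts ranged from 0 to 17, from 0 to 6 and from 4 to 18. DESeq2 called 17, 8 and 22, against 5.13%, 18.1% and 16.4% of all genes, and limma voom 8, 11 and 25, against 2.22%, 36.5% and 29.9%. Without a count filter 9, 3 and 13 were called, against 1.39%, 7.87% and 7.55% of all genes. In fits of the 2 groups alone 3, 11 (of 42 tested) and 11 were called, against 0.115%, 37.8% and 10.5%. Upper-quartile scaling gave 4, 1 and 14, against 0.380%, 9.29% and 10.8%. RLE scaling, a stricter filter and dropping the 20 most abundant genes gave 4, 1 and 11 again, as did adding copies but for 3 in the first comparison. The difference of Gclc between PR-SET7_LOBE and DEN_WT ranged from -0.0334 (without PR-SET7_LOBE replicate 3) to 1.18 (without DEN_WT replicate 2), and that of Mgst1 between DEN_WT and WT from -0.37 (without WT replicate 1) to 0.60 (without WT replicate 2); neither passed the test, and the cause was not tested. Groups of 2 libraries and 7305595 to 16108081 counts limit the precision.

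Libraries of different groups share only a replicate number. Deviations of same-numbered libraries correlated at 0.175 and 0.128 for WT with PR-SET7_LOBE but at 0.0584 for WT with DEN_WT and at -0.00476 and 0.0127 for PR-SET7_LOBE with DEN_WT, and not every library correlated best with its own number. With the number as a replicate block 9, 8 and 15 genes were called, and Gclc between PR-SET7_LOBE and DEN_WT was at -0.021.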

Other observations

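The labels give no sex. The Y-linked gene Ddx3y was at 5.65 and 4.43 CPM in WT, at 2.72, 2.97, 12.6 and 14.6 in PR-SET7_LOBE and at 45.1 and 32.3 in DEN_WT. Of 5 sex-linked genes looked at, 2 were higher in DEN_WT than in WT by edgeR's test, and 2 were lower in PR-SET7_LOBE than in DEN_WT.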
